A study of Macaca mulatta with 24 samples.

Results

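Hemisphere was compared in 24 pieces of rhesus monkey (Macaca mulatta) neocortex, 12 from the left and 12 from the right, which are all the arrays of the series. They came from 4 areas: primary motor cortex (M1, forelimb region), premotor cortex in its dorsal (PMd) and ventral (PMv) parts, and A46 of the prefrontal cortex. All were taken from both sides of 3 animals, so the left and right pieces of one area and one animal form 12 pairs, 3 in each area. Animals 1 and 2 were males aged 2.7 and 2.6 years and animal 3 was a female aged 2.7 years. They had lived in group cages with no experimental treatment and were perfused with saline under a pentobarbital overdose, on both sides alike. The areas were dissected by sulcal landmarks, A46 from both banks of the principal sulcus, so each piece holds all the cell types of its block of tissue. One Affymetrix Rhesus array measured each piece, and levels are log2 of the deposited intensities.

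The cerebral hemispheres share one plan of areas and layers, and each controls mainly the opposite side of the body. Left-right asymmetry of the body is set in the embryo by cilia and by Nodal signalling, while hand preference and, in humans, language are functional asymmetries of cortex. Genes such as LMO4, a transcriptional regulator, and LRRTM1, a synaptic adhesion protein, have been studied as candidates for asymmetry of the human or mouse cortex. Differences between motor and prefrontal cortex, by contrast, follow known differences in cell makeup, such as the large projection neurons and dense myelin of M1.

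Of 52766 probe sets, 26383 lay above the intensity filter and were tested, and they represent 10043 genes. Levels are relative to the other transcripts of an array. In dissected tissue, fewer cells of a type and less RNA per cell cannot be told apart. Arrays correlated with each other at 0.978 to 0.997. The spread of log2 values over probe sets was 1.79 to 1.95 in left arrays and 1.88 to 1.94 in right arrays, and the left PMv arrays of animals 1 and 2 were the narrowest of all. The actin ratio, the log2 signal at the 3' end of the actin transcript over that at its 5' end, reflects RNA integrity and was 0.77 to 1.16 in left arrays and 0.81 to 1.32 in right arrays.

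Left and right pieces differed least in M1, PMd and A46 and more in PMv. When comparisons of equal size were made (6 arrays, 3 pairs, one per animal), the median absolute log2 difference between left and right was 0.05 in M1, 0.06 in PMd, 0.09 in PMv and 0.05 in A46. Among the 12 comparisons of one area with another within a hemisphere it was 0.06 to 0.12. In the tails, 0 probe sets differed at least 2-fold between left and right in M1, PMd and A46 and 1 in PMv, against 166 between M1 and A46 in the left hemisphere and 120 in the right. The 2 kinds of comparison overlapped. Left minus right in PMv had a larger median absolute difference than 6 of the 12 area comparisons and a larger 99th percentile than 6, and PMd and PMv differed at least 2-fold in 0 probe sets in either hemisphere. The limma counts on 6 arrays were 0, 1, 0 and 25 for left minus right in M1, PMd, PMv and A46, or 0%, 0.00379%, 0% and 0.0948% of the probe sets tested, and 2 to 2850 for the 12 area comparisons. The lowest was PMd minus PMv in the left hemisphere (0.00758%), and M1 minus A46 gave 2850 (10.8%) in the left hemisphere and 1258 (4.77%) in the right.

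**Figure D1:**
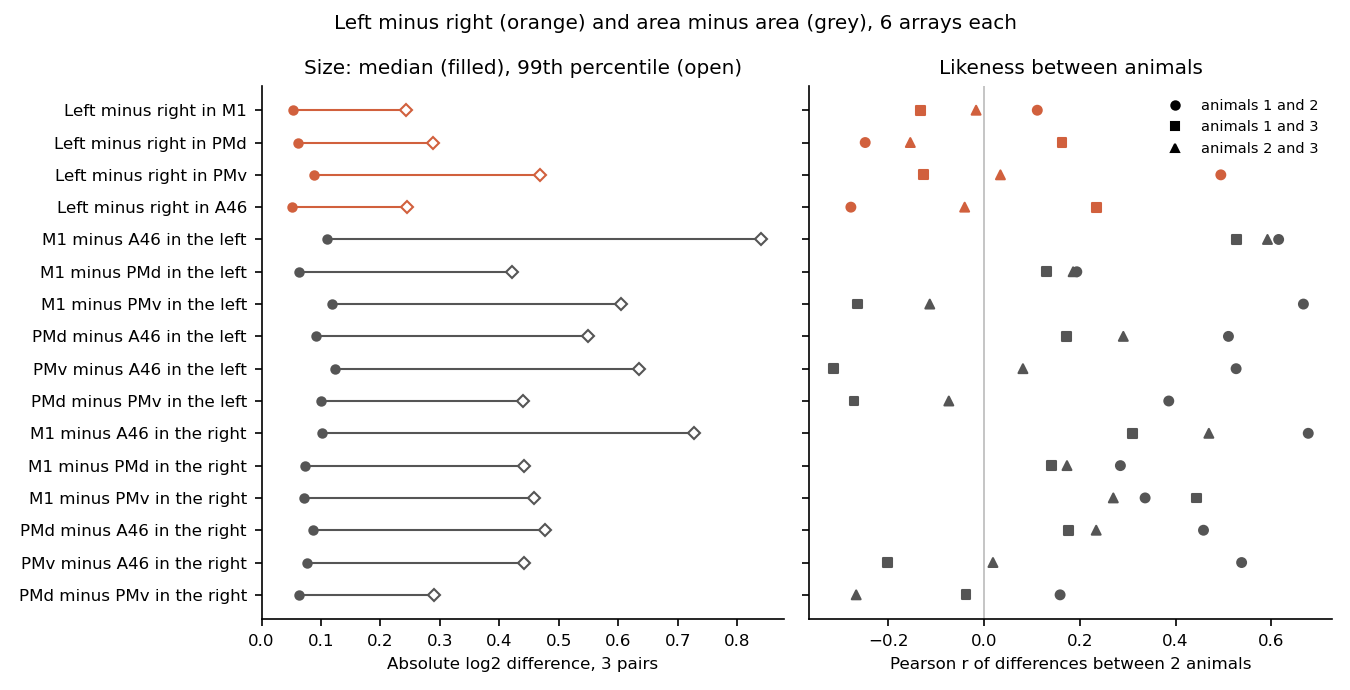
Left minus right in each area (orange) beside area minus area within a hemisphere (grey), with 6 arrays in each comparison. The left panel gives the median and 99th percentile of the absolute log2 difference over 26383 probe sets, and the right panel the Pearson correlation of the differences between 2 animals; M1 minus A46 reaches a 99th percentile of 0.84 in the left hemisphere, while left minus right lies between 0.24 and 0.47.

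The left-right differences recurred little between animals, and so did some area differences. The correlation of left minus right between 2 animals, over 26383 probe sets that share arrays and normalisation, ranged from -0.28 to 0.49 over the 12 comparisons within an area. The highest was between animals 1 and 2 in PMv. For M1 minus A46 the same measure was 0.53 to 0.62 in the left hemisphere and 0.31 to 0.68 in the right. Over all 12 area comparisons it ranged from -0.31 to 0.68, and 5 of them, all involving PMv, held a negative value, as did all 4 left-right comparisons. Area differences measured in the left hemisphere resembled those of the right: for M1 minus A46 the correlation was 0.87, and 111 probe sets differed at least 2-fold in both, 66.9% of the 166 in the left and 92.5% of the 120 in the right. For PMd minus PMv it was 0.13.

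Hemisphere took 2.37% of the summed variance of the 24 arrays, area 22.7% and animal 37.8%. The interaction of area and hemisphere took 5.38%, that of animal and hemisphere 3.72%, that of area and animal 17.7% and the remainder 10.4%. Per degree of freedom hemisphere stood at 2.37% and the remainder at 1.73%, while area stood at 7.58% and animal at 18.9%. When each array was set against the other 23 after centring each probe set, the closest was another piece of the same animal for all 24 arrays. It was the same area of the other hemisphere for all 6 M1 arrays, all 6 A46 arrays, 2 of 6 PMv arrays and 0 of 6 PMd arrays. The PMd partners correlated at 0.33 to 0.51 and the M1 partners at 0.68 to 0.73.

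Over the 12 pairs no transcript passed. limma with each pair as a block called 0 probe sets (0% of those tested), with a smallest adjusted p of 0.346. At an unadjusted p under 0.05 there were 2022 (7.66%), of which 671 (2.54%) were higher and 1351 (5.12%) lower on the left. The largest mean difference was 0.42 on the log2 scale, 0 probe sets reached 1.5-fold and 32 reached 1.2-fold. The 95% interval lay within 1.5-fold either way for 26381 of 26383 probe sets, and its median half-width was 0.10. These p-values treat 12 pairs of 3 animals as independent. Of 3 array measures added afterwards as covariates in this fit, the spread of log2 values gave 252 calls (16 higher and 236 lower on the left) and the 3' to 5' ratios of actin and of GAPDH gave 0 each. With the spread covariate and animal 3 left out limma called 0. Leaving out animal 1 instead gave 119 calls, leaving out animal 2 gave 217, and leaving out the PMv pairs of animals 1 and 2 gave 90.

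The genes with the smallest p-values over 12 pairs are given as values only, since none passed. SERPINI1, which encodes neuroserpin, a protease inhibitor secreted by neurons, had 9.91, 10.56 and 10.88 (lowest, median and highest log2 intensity) in left arrays and 10.44, 10.72 and 11.14 in right arrays. The ranges overlapped, but the left member was lower in 12 of 12 pairs (mean difference -0.26, SE 0.06, limma adjusted p = 0.429). The second probe set of SERPINI1, at a mean of 10.1, differed by -0.11 and was lower on the left in 6 of 12 pairs. P2RY12, a purinergic receptor of microglia, had 6.89, 7.23 and 7.75 in left arrays and 7.26, 7.52 and 7.83 in right arrays, and was lower on the left in 11 pairs (-0.20, SE 0.05, limma adjusted p = 0.429). The other leading genes lower on the left were LOC696304 (-0.25, in 12 pairs), the ubiquitin ligase HECTD2 (-0.19, in 10), GATM, the enzyme of the first step of creatine synthesis (-0.22, in 9), the calcium-binding protein RCN2 (-0.20, in 11), ELMOD1 (-0.21, in 11) and the collagen COL7A1 (-0.21, in 10).

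Higher on the left were 2 dim transcripts first of all. The amino acid transporter gene SLC38A4 had 5.84, 6.01 and 6.51 in left arrays and 5.63, 5.85 and 6.30 in right arrays, with the left member higher in 11 pairs (0.20, SE 0.05, limma adjusted p = 0.429). The zinc finger gene ZNF79 had 5.69, 5.84 and 6.56 in left arrays and 5.50, 5.77 and 5.84 in right arrays, with the left member higher in 12 pairs (0.22, SE 0.06, limma adjusted p = 0.429). RNF115 (0.11), SPATA6 (0.15), the Golgi SNARE GOSR1 (0.16), ZNF691 (0.13), GPR89A (0.18) and NFASC, which encodes neurofascin of nodes and axon initial segments (0.14), followed, each with the left member higher in 10 or 11 pairs. The second probe set of RCN2 and 1 of 3 probe sets of both GATM and RNF115 had the opposite sign. In all, 25 probe sets (0.0948%) had the same sign in 12 of 12 pairs, 8 higher and 17 lower on the left.

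With the animal as the replicate a small set was lower on the left. Averaging the 4 areas of each side gives 3 left and 3 right means, and limma then called 38 of 26383 probe sets (0.144%), 37 lower (0.14%) and 1 higher (0.00379%) on the left, with differences of 0.22 to 0.42 in size. The mean differences are those of the 12 pairs; only the error estimate changes, and it rests on 2 residual beside 19.0 prior degrees of freedom. The 4 genes called at their brightest probe set were PABPC3, a poly(A)-binding protein (-0.30, SE 0.05, adjusted p = 0.0186), SERPINI1 (-0.26, adjusted p = 0.0238), the deacetylase SIRT1 (-0.25, adjusted p = 0.0366) and GATM (-0.22, adjusted p = 0.0458). In PABPC3 the left member was lower in 10 pairs and in SIRT1 in 10. The second probe set of SERPINI1 (-0.11) and the other probe sets of GATM (0.08 and -0.05) did not pass.

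The 38 differed most in PMv. Their median was -0.28 over all areas, -0.60 in PMv, -0.19 in M1, -0.16 in PMd and -0.18 in A46, 34 of 38 were largest in PMv and 32 of 38 had one sign in all 4 areas. In PMv, SERPINI1 had 9.91, 10.02 and 10.72 in the left arrays of animals 1, 2 and 3 and 10.88, 10.49 and 10.80 in the right arrays, so the left values of animals 1 and 2 lay below every right value and that of animal 3 did not. limma called 0 without PMv, 0 without the PMv pairs of animals 1 and 2, 0 without M1, 19 without A46 and 375 without PMd. The median difference of the 38 was -0.17 both without PMv and without those 2 pairs, beside -0.28 with all. All 38 kept their direction in each of these. They were chosen for their differences in these same arrays, so a shared sign across areas and a kept direction are fixed in part by the choice.

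The called probe sets often stood alone within their gene. They name 19 genes, of which 17 have several tested probe sets, and in 15 of these 17 the brightest probe set did not pass (-0.14 to 0.03). SENP3, a SUMO protease chosen here after its values were seen, had the smallest adjusted p (0.00157) at 1 probe set (-0.40), while its 3 other probe sets stood at -0.08, -0.01 and 0.02. NELL2, a secreted neural protein also chosen after its values were seen, had -0.34 at the called probe set (adjusted p = 0.00887) and -0.04 at the brighter one. EP300, an acetyltransferase chosen in the same way, had a negative difference at all 6 probe sets (-0.06 to -0.27), of which 2 passed.

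**Figure D2:**
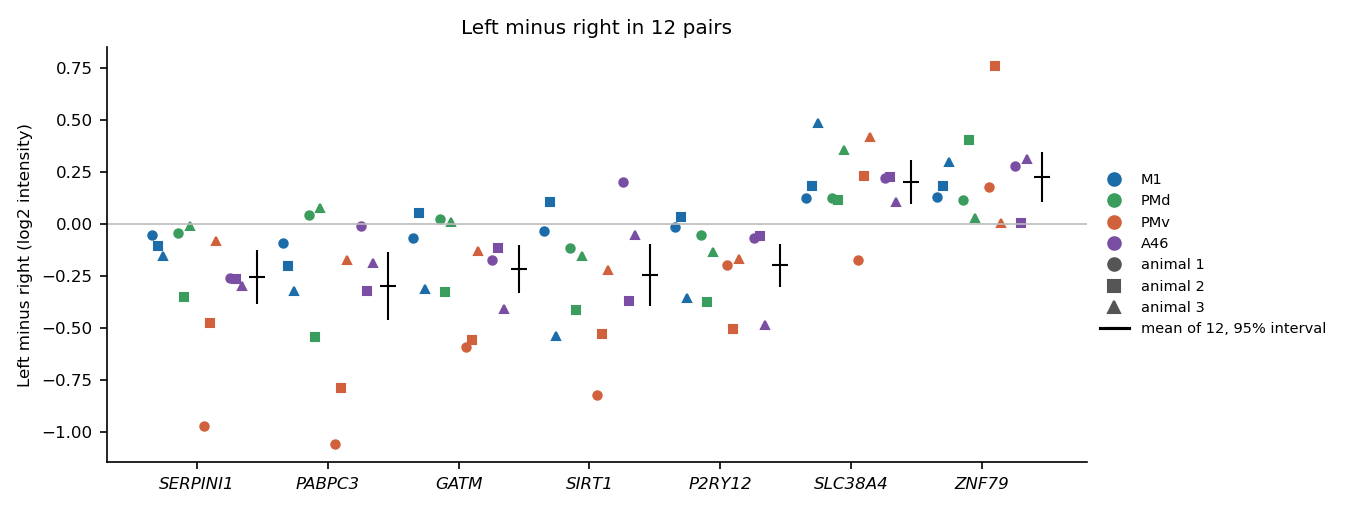
Left minus right in log2 intensity for 7 genes in each of the 12 pairs, coloured by area and shaped by animal, with the mean of 12 and its 95% interval in black. The PMv pairs of animals 1 and 2 are the most negative for SERPINI1, PABPC3 and GATM; for SIRT1 the M1 pair of animal 3 lies at -0.54, beside -0.82 and -0.53 in those PMv pairs.

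PMv showed the widest left-right differences. At least 2-fold differences occurred in 68 probe sets in animal 1 (63 lower on the left), 32 in animal 2 (29 lower) and 13 in animal 3 (13 lower), against 0 to 14 in each pair of the other areas. Animals 1 and 2 shared 5 of their lower probe sets, 7.94% of the 63 and 17.2% of the 29. In all 3 animals together limma called 0 probe sets (0%), and 3936 (14.9%) had an unadjusted p under 0.05, 982 higher (3.72%) and 2954 lower (11.2%) on the left. These same 2 pairs hold the narrowest left arrays. The spread of log2 values in PMv of animals 1, 2 and 3 was 1.79, 1.83 and 1.94 on the left. On the right it was 1.88, 1.90 and 1.92. The spread was also lower on the left in PMd and A46 of animal 2 (by -0.064 and -0.038) and M1 of animal 3 (-0.023). In the remaining pairs it was higher on the left. The PMv differences of animal 1 correlated at 0.41, 0.38 and 0.26 with those of these 3 pairs. With the other pairs outside PMv they correlated at -0.34 to -0.004. With the spread as a covariate limma called 12 probe sets in PMv, all lower on the left, without animal 3 it called 1803 and with array weights 3574. The part of the spread in the PMv differences was not tested further.

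**Figure D3:**
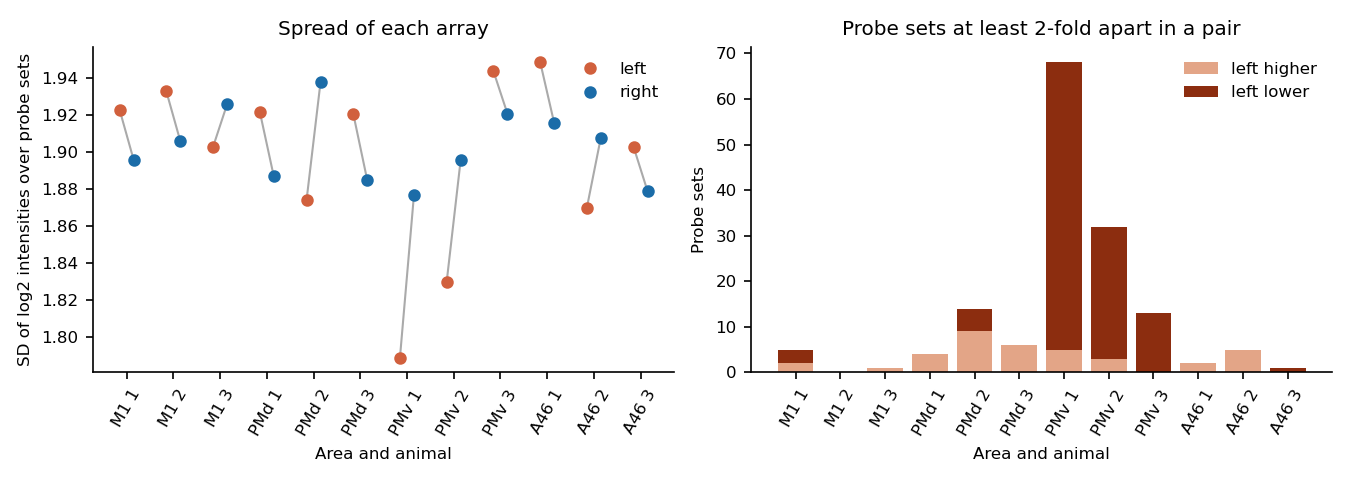
The left panel shows the standard deviation of log2 intensities of each left and right array, joined by pair, and the right panel the number of probe sets at least 2-fold apart in each pair. The left PMv arrays of animals 1 and 2 have the lowest values, 1.79 and 1.83, and their pairs hold the most 2-fold differences, 68 and 32.

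The leading PMv genes did not pass. ZNF184, a zinc finger gene, differed by -0.96, -0.71 and -0.36 in animals 1, 2 and 3 (mean -0.68, SE 0.11, limma adjusted p = 0.0578). The phosphatase gene PPM1B (-0.67, -0.61 and -0.31) and the major histocompatibility gene MAMU-AG (-0.63, -0.61 and -0.34) had the same adjusted p. MAMU-AG passed the intensity filter of 5.62 through animal 3 alone, with 8.53 to 9.42 there and 4.24 to 5.39 in animals 1 and 2, so its larger differences come from values below the filter. On the other side DLEC1 (0.85, 0.66 and 0.19) and GPR89A (0.70, 0.31 and 0.30) also stood at 0.0578, and IFTAP (0.40, 0.35 and 0.29) at 0.077. Each of these had one direction in all 3 pairs, as did 28.5% of all probe sets tested in PMv. They were chosen for small p-values in these same pairs, so the shared direction is fixed in part by the choice. Of 18 immediate early genes, which are induced by neuronal activity, 16 were lower on the left in PMv, with a median of -0.17 and EGR2 at -0.54, and of 17 respiration genes 15 were, with a median of -0.12. Over all genes 63.6% were lower on the left in PMv and the median was -0.04, and 0 members of either list passed (6 and 5 at an unadjusted p under 0.05, a level that 1372 of 10043 genes, or 13.7%, reached in PMv).

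When all 24 arrays shared one estimate of spread, PMd gave the one call of the 4 areas. One probe set of MAX, the dimerisation partner of MYC, was higher on the left (0.68, SE 0.09, limma adjusted p = 0.023; 1 call, 0.00379% of those tested). It had 9.99, 9.79 and 9.84 in the left PMd arrays of animals 1, 2 and 3 and 9.12, 9.26 and 9.19 in the right ones, so the sides did not overlap. The same probe set differed by 0.14 in M1, -0.06 in PMv and -0.09 in A46. The other 4 probe sets of MAX differed by -0.10 to 0.14 in PMd, and the call was lost without animal 1, without the intensity trend and with no replicate block. At an unadjusted p under 0.05 PMd had 1059 probe sets (4.01%). GARS1, a glycyl-tRNA synthetase (0.56, 0.23 and 0.59), the splicing-related ARGLU1 (0.41, 0.46 and 0.43) and the forkhead factor FOXN2 (0.30, 0.24 and 0.41) led on the high side with limma adjusted p = 0.299 to 0.806. TCAF2 (mean -0.35), the G protein subunit GNG7 (-0.34) and FAM187A (-0.34) led on the low side. FAM187A lay near the intensity filter of 5.62. Its left PMd arrays, at 5.554, 5.457 and 5.525, were below it and its right ones, at 5.86, 5.702 and 5.993, above it.

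M1 gave 0 calls by limma (0%) and 501 probe sets at an unadjusted p under 0.05 (1.9%), 250 higher (0.948%) and 251 lower (0.951%) on the left. CNR1, the cannabinoid receptor of axon terminals, differed by -0.42, -0.28 and -0.65 in animals 1, 2 and 3, and ACKR1, an atypical chemokine receptor of vessels, by -0.56, -0.31 and -0.24. The second probe set of ACKR1 had the opposite sign over 12 pairs. CNKSR3 (0.28, 0.34 and 0.40) was the leading gene on the high side. The limma adjusted p of all 3 was 1.00.

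A46 gave 0 calls when all 24 arrays shared one estimate of spread (0%) and 485 probe sets at an unadjusted p under 0.05 (1.84%). With the 6 A46 arrays alone limma called 25 (0.0948%), 18 higher (0.0682%) and 7 lower (0.0265%) on the left. SLC13A4, a sulphate transporter of the leptomeninges, was higher by 0.98, 0.39 and 0.89 in animals 1, 2 and 3 (mean 0.76, adjusted p = 8.85e-09 on 6 arrays and 1.00 on 24). The collagen gene COL1A2 (0.90, 0.17 and 0.67) and the matrix proteoglycan OGN (0.61, 0.35 and 0.16), both chosen after their values were seen, passed on 6 arrays too. With 6 arrays few residual degrees of freedom remain, so the error estimate (SE 0.09 for SLC13A4) leans on that of other probe sets. The p-values on 6 arrays thus say little about how alike the 3 animals were. Of the markers of meninges and choroid plexus, 9 of 9 were higher on the left in A46. Their summed intensity was 1205 to 1926 in left A46 arrays and 1088 to 1358 in right ones. In PMv 3 of 9 were higher on the left, where 63.6% of all genes were lower. Of the oligodendrocyte and myelin markers 7 of 7 were lower on the left in A46, with a summed intensity of 9837 to 12410 in left and 9916 to 13370 in right arrays. The meningeal list includes SLC13A4 and COL1A2, so its count repeats them in part. In A46 the median was 0.12 for the meningeal list, -0.17 for the myelin list and 0.01 over all genes. With that last median above 0, more genes were higher than lower on the left in A46. The other marker lists ran from 1 of 7 (GABAergic neuron) to 5 of 5 (glutamatergic neuron) higher on the left there. The weakest meningeal marker, COL1A1, had a mean intensity of 54.5, near the filter of 49.3, and the weakest myelin marker, SOX10, had 219. The part of meninges or of white matter in these pieces was not tested. The actin ratio was lower on the left in all 3 A46 pairs and all 3 PMv pairs, which was not tested either. Left minus right of the GAPDH ratio had both signs in animals 1, 2 and 3. It was -0.05, 0.06 and -0.06 in A46 and 0.05, 0.11 and -0.11 in PMv.

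Left minus right was not shown to differ between areas or between animals. limma's F test over areas called 0 probe sets (0%; 1113 or 4.22% at an unadjusted p under 0.05) and that over animals 0 (0%; 1159 or 4.39%). With array weights the test over areas called 479. Among the brightest probe sets of genes, ZNF184 had the smallest p for areas, with -0.04 in M1, 0.26 in PMd, -0.68 in PMv and -0.12 in A46 (adjusted p = 0.999). USP14, a proteasome-linked deubiquitinase, led for animals, with 0.25 and 0.59 in animals 1 and 2 and -0.67 in animal 3 (adjusted p = 0.902). GFAP, the intermediate filament of astrocytes, had -0.23, 0.22 and 0.00 in animals 1, 2 and 3.

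Genes with large area differences are given by hemisphere as a description only. The 26 listed were chosen from area results of these same arrays, so a like area difference on both sides is fixed in part by the choice and supports nothing. M1 minus A46 had the same sign in the left and right hemisphere in 26 of 26. In 25 of 26 this area difference exceeded the largest left-right difference of any area, by a median of 5.54 times, and 13 of 26 had the same order of all 4 areas on both sides. NEFH, a neurofilament subunit of thick axons, averaged 11.31 ± 0.15 in left M1 and 11.13 ± 0.35 in right M1, and 9.03 ± 0.40 in left A46 and 8.94 ± 0.14 in right A46 (SD, n = 3 animals). RFTN2, a lipid raft protein, was 2.49 higher in M1 than in A46 on the left and 2.25 on the right.

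**Figure D4:**
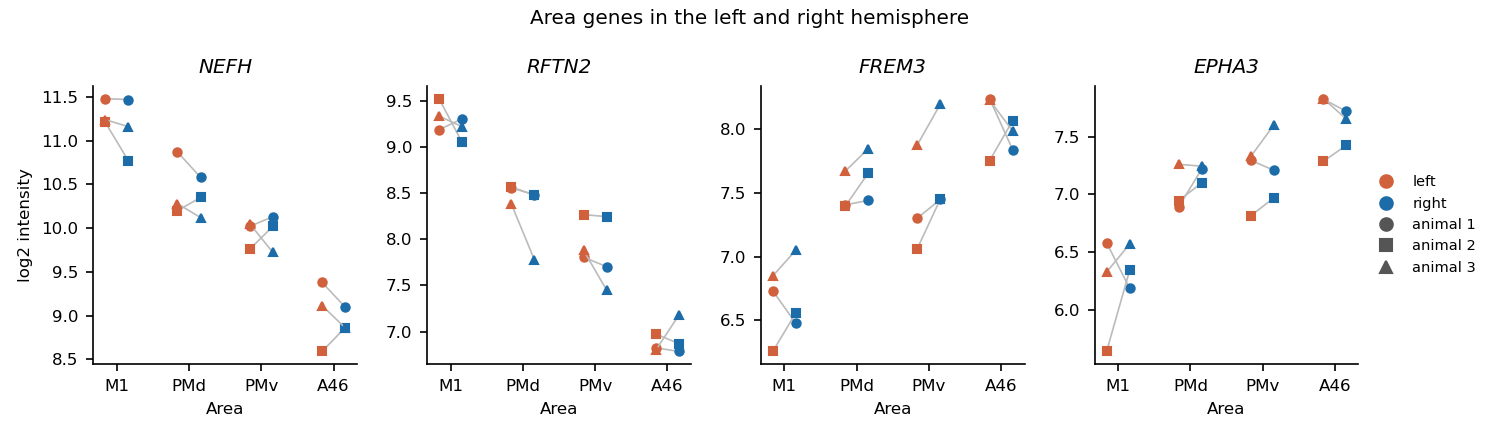
Log2 intensity of NEFH, RFTN2, FREM3 and EPHA3 in each animal, with left arrays in orange and right arrays in blue, joined by pair. On both sides NEFH and RFTN2 average higher in M1 than in A46 and FREM3 and EPHA3 lower; FREM3 averages 7.49 in left PMd and 7.41 in left PMv, so its left means do not climb at each step.

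FREM3, an extracellular matrix protein, was lower in M1 than in A46 by a log2 difference of -1.46 on the left and -1.27 on the right, and the ephrin receptor EPHA3 by -1.46 and -1.23. The upper layer factor CUX2 had a ratio of area to left-right difference of 2.59, with -0.24, -0.24, -0.27 and 0.06 for left minus right in M1, PMd, PMv and A46. DIAPH3, a formin singled out after its values were seen, was the exception by this measure, with a largest left-right difference of 0.304 in M1 and an M1 minus A46 difference of 0.302. It was highest in PMd (7.18 on the left and 7.37 on the right), and its means ranged over the 4 areas by 1.22 on the left and 1.27 on the right.

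Candidate genes of cortical laterality showed no left-right difference past the test. Of 19 listed, 11 were tested, with a median of 0.01 beside -0.01 over all genes, and 0 had an unadjusted p under 0.05 against 6.32% of all genes (635 of 10043). LMO4 had a mean difference of 0.01 (95% interval -0.06 to 0.07), LRRTM1 of 0.04 (-0.05 to 0.12) and NEUROD6, a neuronal transcription factor, of 0.05 (-0.04 to 0.14). FOXP2, a factor of speech and motor circuits in humans, had -0.09 (-0.17 to 0.00) and the X-linked protocadherin PCDH11X 0.08 (-0.01 to 0.16), a sign that 1 of its 3 probe sets had. For all 11 the interval lay within 1.5-fold, as it did for 26381 of all 26383 probe sets tested. ID2 and PCSK6 are named by no probe set used here.

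Genes of the embryonic left-right axis gave a like picture. Of 26 listed, 10 were tested (median 0.02), and the Notch ligand DLL1 (-0.10, lower on the left in 11 pairs) and the ciliary dynein gene DNAI1 (-0.10, in 9 pairs) had an unadjusted p under 0.05, with limma adjusted p = 0.536 and 0.619. These were 2 of the 10 tested, against 6.32% of all genes. PKD2, a cation channel of sensory cilia, had 0.06 and NODAL itself, close to the intensity filter, 0.00.

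Over all genes 5613 of 10043 were lower and 4430 higher on the left over 12 pairs, with a median of -0.01. Among the other lists, 15 of 18 immediate early genes were lower on the left, with a median of -0.05. EGR2 stood at -0.23 (its second probe set had the opposite sign), NR4A1 at -0.11, JUNB at -0.09 and FOS at -0.02, and 0 passed. Of 17 respiration genes 14 were lower on the left (median -0.03), led by COX7B (-0.11). Of 7 oligodendrocyte and myelin markers 6 were higher on the left (median 0.06), but the median by area was 0.14 in M1, 0.20 in PMd, 0.07 in PMv and -0.17 in A46. Over the 12 pairs this list ranged from -0.34 in PMv of animal 1 to 0.48 in PMv of animal 3. The microglia list had 7 of 11 lower on the left (median -0.03), and the synaptic list 10 of 17 higher (median 0.01).

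**Figure D5:**
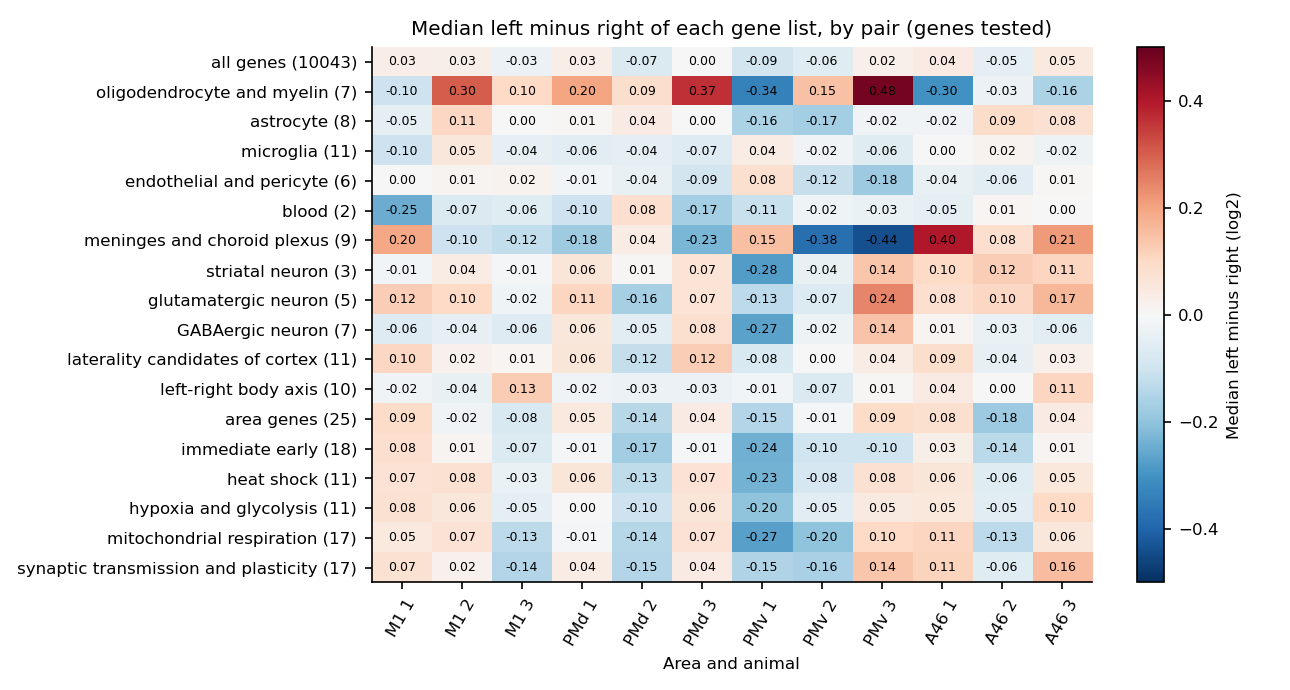
Median left minus right (log2) of each gene list in each of the 12 pairs, with the number of tested genes in brackets and all genes in the top line. Oligodendrocyte and meningeal lists swing furthest, between -0.44 and 0.48, and no list has one colour across all 12 pairs.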

How the data were processed

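RNA of 24 cortical pieces was measured on one-colour Affymetrix Rhesus arrays. The deposited values are linear intensities per probe set from RMA, per the submitters' processing notes; no source used here gives its version or says which arrays were normalised as one set, and background correction could not be varied. RMA hides shifts shared by all transcripts. Values were taken as log2. Of 52865 probe sets, 99 controls and those with a mean log2 below the median (5.62) were left out. Genes are probe sets with 1 symbol, the brightest per gene.

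limma 3.58.1 (R 4.3.3) was fitted with an intensity trend. Left and right were paired by animal and area, since title numbers name the animal and sex and age labels match them. Fits used 12 pairs as blocks, means over 3 animals, hemisphere within area or animal, and 6 arrays at a time. Benjamini-Hochberg adjusted p under 0.05 was called, two-sided. The scripts were tested on simulated data. Named genes are up to 8 each way over 12 pairs, up to 10 called over 3 animals, 3 each way per area, 5 per F test, up to 4 per list and 27 fixed by name; others are marked. Members and lists were chosen with earlier results of these data known. The number of animals limits the precision. Alternatives covered filters, scale, normalisation, trend, weights, blocks and left-out animals and areas.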

Additional observations from a re-analysis of the deposited data

How the results depend on the processing

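The pairing rests on the animal and area. With no replicate block limma called 0 probe sets over 12 pairs, 0 over 3 animals in place of 38, and 0 in PMd in place of 1; with the animal as a random block the pair differences correlated at -0.03 within an animal and 0 were called. Over 12 pairs the count stayed at 0 under every other filter, scale, normalisation, weighting, block and left-out animal or area tried. Covariates were added after seeing the data. Of the 3 tried, the spread of log2 values gave 252 over 12 pairs and 222 over 3 animals, the actin ratio 0 and 14, and the GAPDH ratio 0 and 65. The 38 probe sets called over 3 animals were followed in these fits. With the spread 38 of them passed again, with the actin ratio 1 and with the GAPDH ratio 33. Over 12 pairs with the spread covariate, leaving out animal 1, 2 or 3 gave 119, 217 and 0 calls. In the same fit, adding the actin ratio gave 132 and leaving out the PMv pairs of animals 1 and 2 gave 90. Over 3 animals the count was 123 in the brightest probe sets, 14 without the trend, 0 without M1, 375 without PMd, 0 without PMv, 19 without A46, 0 without the PMv pairs of animals 1 and 2, and 137 to 265 without an animal. In PMv it was 8 without the filter, 2 in the brightest probe sets, 186 after a further quantile normalisation, 3574 with array weights, 12 with the spread covariate and 0 to 1803 without an animal. In PMd it was 0 without the trend, 4 with array weights and 0 to 1 without an animal. In A46 it was 2 with array weights and 25 on 6 arrays alone. The F test between areas gave 479 with array weights, 1 with the spread covariate and 0 to 4 without an animal, and that between animals 2 with array weights. The 26 left-right calls on 6 arrays became 10 without the filter. The hemisphere share of variance was 2.70% without the filter and 2.86% to 4.16% without an animal. In every case the cause was not tested. Settings that left out an animal, pair or area also had fewer samples. Direction was checked only for the leading genes over 12 pairs and for the calls over 3 animals, and none reversed. Both sets were chosen on the same arrays, which fixes this in part.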

Other observations

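The 6 tested probe sets whose identifiers mark them as mitochondrial transcripts, chosen after their values were seen, were all lower on the left over 12 pairs, by -0.07 to -0.19 on the log2 scale; of all probe sets tested 54.6% were lower on the left. In 3 of 6 the unadjusted p was under 0.05, against 7.66% of all probe sets, and by limma 0 passed (adjusted p = 0.407 to 0.861). The brightest, at a mean log2 intensity of 13.9, was lower on the left in 11 of 12 pairs.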
